A study of Mus musculus with 6 samples.

Results

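MYC, its partner MAX and the proteins that build ribosomes were followed as 36 named genes, among 29752 genes or unnamed transcripts tested. The members are Myc and Max, 5 genes of RNA polymerase I transcription, 4 nucleolar chaperones and GTPases, 6 genes of the snoRNPs that modify ribosomal RNA, 5 genes of small subunit assembly, 11 genes of large subunit assembly, the translation factors Eif4a1 and Eif4e, and Cad. They were chosen by symbol and each was matched to at least 1 probe. All 36 were well above background on all 6 arrays, as were 27879 of the 29752 tested. The cells were BV2, a mouse microglial line that grows without limit in culture, and had been given recombinant mouse IL-4 at 10 ng/ml or PBS for 24 hr, with 3 samples each and 1 single-colour array per sample. No source used here says whether the samples came from separate cultures. The p-values therefore cover only the variation among these 6 samples, and that variation may be technical.

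MYC is a transcription factor that binds the E-box sequence CACGTG as a dimer with MAX. Its best known targets include the genes that make ribosomes: RNA polymerase I transcribes ribosomal RNA in the nucleolus, small nucleolar RNPs guide its modification, and large sets of assembly factors fold and cut it into the 2 ribosomal subunits. In human macrophages MYC is known as one of the genes that IL-4 induces during alternative activation, and ribosome synthesis generally goes with cell growth and division.

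From the scan times and array positions in the file headers, the arrays lay on 2 slides. Slide 1 held all 3 IL-4 arrays together with PBS replicate 1, and slide 2 held the other 2 PBS arrays, replicates 2 and 3. Treatment and slide can therefore be separated only within slide 1, where 1 PBS array carries the comparison. Each array had 34655 to 38650 of its 39429 probes well above background, none of them saturated, and precision is limited by how few arrays there are. Of 12 microglia and macrophage markers, 11 were tested and all 11 were well above background on every array, among them Csf1r, Aif1 and Itgam. That flag tells little about cell type, since 27879 of 29752 tested genes had it on every array. So did all 5 tested neuron markers, all 6 oligodendrocyte markers and 4 of 5 tested astrocyte markers. Over all 6 arrays Aif1, Tyrobp and Lyz2 fell with IL-4 (log2 fold changes of -0.95 to -0.72, adjusted p = 0.035 to 0.040, limma). On slide 1 these 3 differed by -0.55 to -0.49, and in the fit blocked by slide none passed (adjusted p = 0.22 to 0.23). Of 10 proliferation markers, Mki67, Ccna2 and Plk1 fell over all arrays (log2 fold changes of -0.79 to -0.75, adjusted p = 0.037 to 0.049), differed by -0.51 to -0.41 on slide 1 and did not pass in the fit blocked by slide (adjusted p = 0.22 to 0.34). Of all tested genes, 2.54% fell over all arrays at an adjusted p under 0.05 (limma). The proliferation list as a whole had a median of 0.0064 over all arrays with 6 of 10 above 0, against 43.5% of all tested genes. Pcna, the DNA polymerase clamp, stood at 0.31 ± 0.11 (SE, adjusted p = 0.098, limma). The part of cell division in the values below was not tested. In RNA from whole cultures, fewer cells expressing a gene and less of its mRNA per cell cannot be told apart.

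None of the 36 genes passed the test. In limma's fit over all 6 arrays 0 members were higher and 0 lower with IL-4 at an adjusted p under 0.05, where 0.807% and 2.54% of all tested genes were, 3.35% together, and the lowest adjusted p among the members was 0.057. At an unadjusted p under 0.05, 11 members were higher and 2 lower, against 16.6% and 17.5% of all tested genes. With slide as a block, which leaves the difference within slide 1, limma again called 0 members, where 0.0303% of all tested genes were called. At an unadjusted p under 0.05 that fit had 5 members higher and 0 lower, against 4.39% and 5.82% of all tested genes.

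Without a call for any gene, the members lay mostly on one side within slide 1. The mean of the IL-4 arrays was above PBS replicate 1 for 28 of 36 members, or 77.8%, against 51.2% of all tested genes. All 3 IL-4 arrays were above PBS replicate 1 for 24 members and below it for 4, or 66.7% and 11.1%, against 30.2% and 25.7% of all tested genes. The median of the members' differences on slide 1 was 0.20 on the log2 scale, against 0.0055 for all tested genes, and 33 of the 36 lay within the range from the 5th to the 95th percentile of all tested genes. The members' median was 0.13 with quantile normalization and 0.15 without IL-4 replicate 1, where that of all tested genes was 0.01 and 0.04. IL-4 replicate 1 was the IL-4 array on which 29 members, or 80.6%, were highest among the 3, against 30% of all tested genes. Most members had signals above the 75th percentile of their array, so they were brighter than most genes they are set against. The shares and medians of all tested genes, here and elsewhere, were not matched for signal. Whether other genes of similar signal lean the same way on slide 1 was not tested.

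Over all 6 arrays the same genes showed little net difference. Their median log2 fold change was 0.02, against -0.05 for all tested genes, with 24 members above 0, or 66.7%, against 43.5% of all tested genes. The PBS arrays themselves differed: PBS replicate 1 was below both PBS replicates 2 and 3 for 22 members, or 61.1%, against 50.6% of all tested genes. It was above both for 8 members, or 22.2%, against 31.9% of all tested genes. The median of PBS replicate 1 minus the mean of the other PBS arrays was -0.20 for the members and -0.08 for all tested genes. Against the PBS arrays of slide 2 the median of the members was 0.02, with 19 of 36 above 0. That of all tested genes was -0.09. The array medians of the members, each gene centred on its mean over the 6 arrays, were 0.13, -0.06 and 0.03 for IL-4 replicates 1, 2 and 3, against -0.14, 0.03 and 0.03 for PBS replicates 1, 2 and 3. PBS replicate 1 was thus the lowest array for this group of genes and IL-4 replicate 1 the highest.

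**Figure D1:**
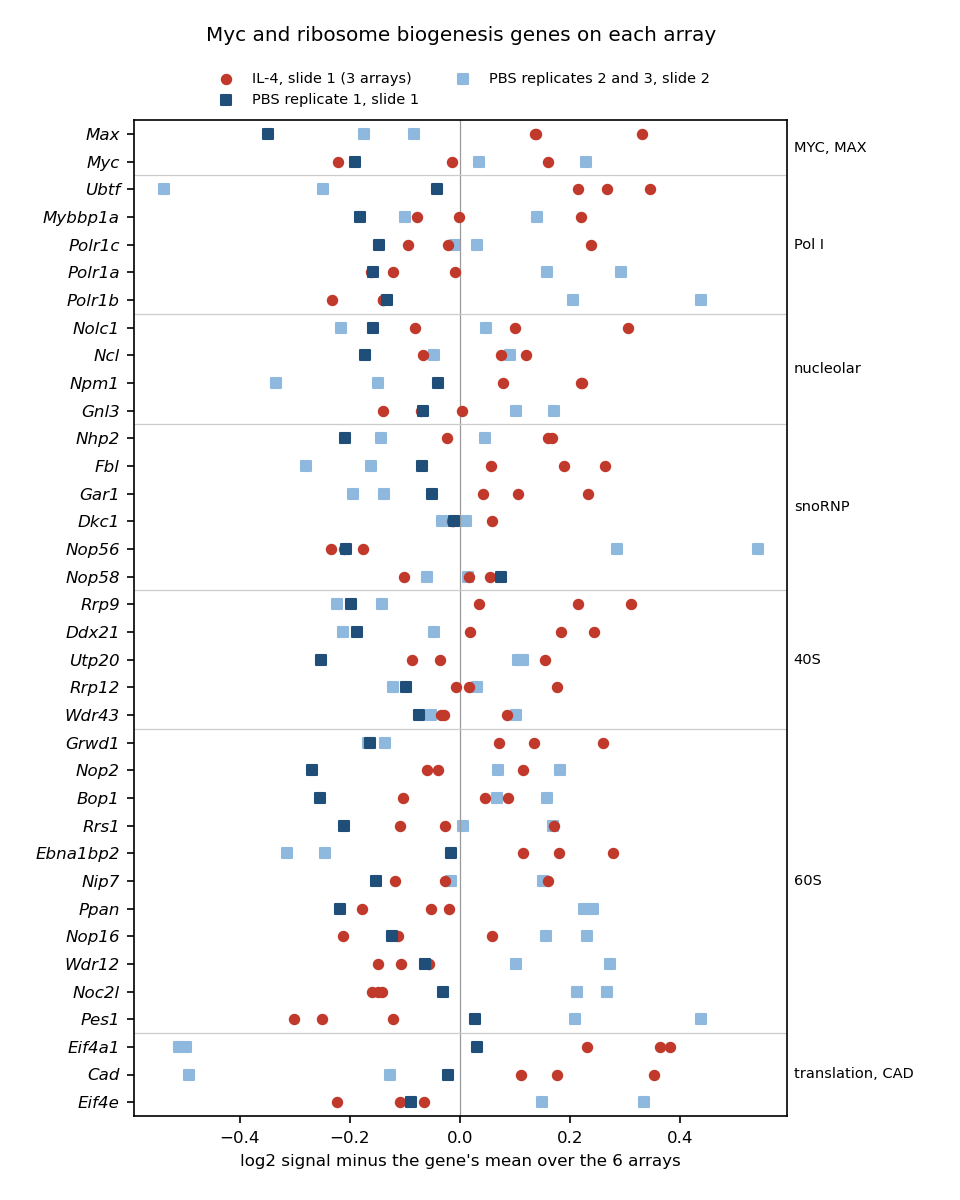
Each row is a gene and each point an array, placed at its log2 signal minus the mean of the gene over the 6 arrays, with rows grouped by role and ordered by the difference on slide 1. Red circles are IL-4 arrays, the dark square PBS replicate 1 on slide 1, light squares PBS replicates 2 and 3 on slide 2; all red circles lie to the right of the dark square for 24 genes and to its left for 4.

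Taken against both sets of PBS arrays, the members split into 4 patterns. The IL-4 mean was above PBS replicate 1 and above the mean of PBS replicates 2 and 3 for 18 members, among them Max, Ubtf, Npm1, Fbl, Rrp9, Grwd1, Eif4a1 and Cad. It was above the first and below the second for 10, namely Myc, Nop2, Nop16, Bop1, Wdr43, Rrs1, Polr1a, Utp20, Ppan and Nip7. It was below both for 7, namely Nop56, Pes1, Wdr12, Polr1b, Gnl3, Noc2l and Eif4e. Nop58 alone was below the first and above the second. Both differences use the same 3 IL-4 arrays, so they are not independent of each other.

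**Figure D2:**
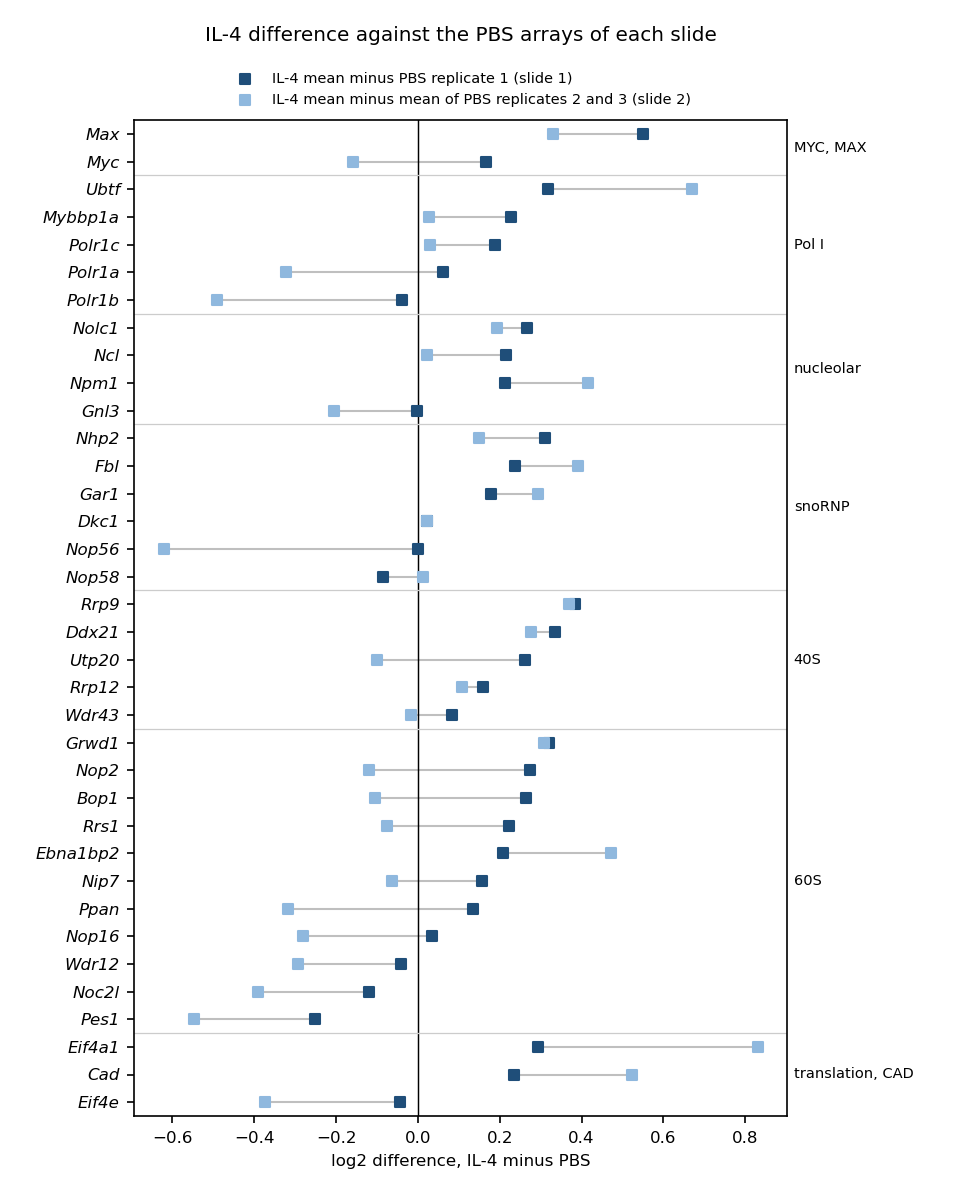
For each gene the dark square gives the IL-4 mean minus PBS replicate 1 on slide 1 and the light square the IL-4 mean minus the mean of PBS replicates 2 and 3 on slide 2, in log2 units, joined by a line. Lines that cross 0 mark the 11 genes whose direction depends on the slide of the PBS arrays, and Eif4a1, Nop56 and Polr1b have some of the longest lines.

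Levels below are log2 signals relative to the 75th percentile of the same array, where 0 is that percentile. They serve to compare arrays for 1 gene and not amounts of mRNA between genes.

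Myc, the transcription factor itself, had levels of -3.31, -3.10 and -2.93 with IL-4, against -3.28, -3.05 and -2.86 with PBS. The 2 groups overlapped almost fully, and each had a spread of about the same size (SD 0.19 with IL-4 and 0.21 with PBS, n = 3 each). Its log2 fold change was -0.05 ± 0.15 (SE, adjusted p = 0.83, limma), and on slide 1 the difference was 0.17 ± 0.17 (adjusted p = 0.83 with slide as a block). Only 1 probe stood for Myc, and its levels were the lowest of any member. The neuron marker Rbfox3 and the oligodendrocyte marker Mbp had similar signals, at -3.48 and -3.32 on PBS replicate 1. Other markers of those cell types lay higher, such as Snap25 at 0.58 on that array, or lower. Whether the probe followed Myc mRNA at so low a signal was not tested. The values of Myc may therefore say little about its mRNA.

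Max, the obligate partner of MYC and of its antagonists, had levels of 2.23, 2.04 and 2.04 with IL-4, against 1.56, 1.73 and 1.82 with PBS. The groups did not overlap, and PBS replicate 1 was the lowest of the 6 arrays. The log2 fold change was 0.40 ± 0.12 (SE, adjusted p = 0.066, limma), a fold of 1.32. On slide 1 it was 0.55 ± 0.13, the largest difference of any member there and a fold of 1.46 (adjusted p = 0.23 with slide as a block). Every IL-4 array lay above every PBS array for 11 members and below for 3, or 30.6% and 8.33%, against 18.3% and 20% of all tested genes. The 11 were Max, Npm1, Fbl, Rrp9, Ddx21, Gar1, Ubtf, Ebna1bp2, Grwd1, Eif4a1 and Cad, and the 3 were Pes1, Polr1b and Noc2l.

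The promoters of the members were searched for the E-box. The members were chosen by symbol and not by sequence, but they include a class of known MYC targets. A high share of E-boxes is therefore not independent of that choice. RefSeq promoter windows of build GRCm38.p6, from 250 bases before to 50 after the start, were held for 30 of the 36 genes, and Myc, Npm1, Fbl, Bop1, Rrp12 and Rrs1 were not matched. CACGTG, which reads the same on both strands, occurred in a window of 9 of these 30 genes, or 30%, against 8.09% of 27025 genes and 7.15% of 32851 windows. The 9 were Max, Nop2, Pes1, Wdr43, Utp20, Mybbp1a, Grwd1, Eif4a1 and Eif4e. The related sequence CACGCG, counted together with its reverse complement CGCGTG, which can overlap it by 4 bases, occurred for 12 of 30 genes, or 40%, against 10.5% of all genes. The windows of the members were also richer in G and C, with a median of 59.7% over genes, against 52.8% for all genes. A match of letters is a description and does not show that MYC or MAX bound there.

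Of the 9 genes with CACGTG, windows of 4 from both ends of the slide 1 ranking by brightest probe are shown, with CACGTG in capitals. Grwd1, also among the 8 largest differences upwards, and Eif4e, among the 4 largest downwards, carry CACGTG too but are not shown. Max, Eif4a1 and Nop2 were among the 8 largest differences upwards and Pes1 had the largest downwards. Each has 100 bases, read 5′ to 3′ on the strand of the gene. That of Max lies on the minus strand at chr12:76962229-76962328, that of Nop2 on the plus strand at chr6:125131803-125131902 and that of Pes1 on the plus strand at chr11:3963895-3963994, all from 80 bases before to 20 after the start. That of Eif4a1 lies on the minus strand at chr11:69672543-69672642, with its first base 219 bases before the start.
Max: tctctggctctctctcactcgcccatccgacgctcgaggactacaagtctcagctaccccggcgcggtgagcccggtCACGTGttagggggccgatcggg
Nop2: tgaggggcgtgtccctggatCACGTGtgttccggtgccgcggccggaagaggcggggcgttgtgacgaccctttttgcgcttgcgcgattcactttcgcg
Eif4a1: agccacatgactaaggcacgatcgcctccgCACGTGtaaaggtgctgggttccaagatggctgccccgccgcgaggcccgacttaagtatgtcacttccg
Pes1: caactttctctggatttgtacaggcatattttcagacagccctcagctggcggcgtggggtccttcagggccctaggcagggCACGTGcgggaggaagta
The site in Max spans the start, beginning 3 bases before it, and that in Pes1 begins at base 3 after it. The site in Nop2 begins 60 bases and that in Eif4a1 189 bases before the start. The only one of these 4 below PBS replicate 1 is Pes1, by its brightest probe, while its other probe lay 0.31 above it.

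Among the genes of RNA polymerase I transcription, 4 of 5 were above PBS replicate 1 and the median difference on slide 1 was 0.19. Ubtf, the upstream binding factor that loads the polymerase onto ribosomal DNA, had levels of 5.81, 5.68 and 5.74 with IL-4, against 5.43, 5.22 and 4.93 with PBS. All IL-4 arrays were above all PBS arrays, and the PBS arrays spread more widely (SD 0.07 with IL-4 and 0.25 with PBS, n = 3 each). The log2 fold change was 0.55 ± 0.14 (SE, adjusted p = 0.058, limma), and 0.32 ± 0.14 on slide 1 (adjusted p = 0.52 with slide as a block).

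Polr1b, the second-largest subunit of RNA polymerase I, had levels of -1.84, -1.93 and -1.84 with IL-4, against -1.83, -1.49 and -1.26 with PBS. PBS replicate 1 lay next to the IL-4 arrays, and the PBS arrays of slide 2 were higher. Its log2 fold change was -0.34 ± 0.15 (SE, adjusted p = 0.15, limma), whereas the difference on slide 1 was -0.04 ± 0.13. Polr1a, the largest subunit, followed the same pattern, at -0.19 ± 0.14 over all arrays and 0.06 ± 0.12 on slide 1. Polr1c, a subunit shared with RNA polymerase III, differed by 0.08 ± 0.12 and 0.19 ± 0.15, and Mybbp1a, a nucleolar regulator of ribosomal RNA synthesis, by 0.09 ± 0.13 and 0.23 ± 0.16. None of these 3 passed either fit.

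Of the nucleolar chaperones and GTPases, Npm1, nucleophosmin, differed by 0.35 ± 0.11 over all arrays (SE, adjusted p = 0.084, limma) and by 0.21 ± 0.13 on slide 1. It was the member with the most probes, and its other 4 gave log2 fold changes of 0.10 to 0.18 and slide 1 differences of 0.10 to 0.21, all in the same direction. Nolc1, a chaperone of snoRNPs, differed by 0.22 ± 0.13 over all arrays and 0.27 ± 0.18 on slide 1, and Ncl, nucleolin, by 0.09 ± 0.11 and 0.22 ± 0.13. Gnl3, the GTPase nucleostemin, differed by -0.14 ± 0.11 over all arrays and -0.0024 ± 0.11 on slide 1. Of these 4 genes 3 were thus above PBS replicate 1, by similar amounts.

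Of the 6 snoRNP proteins, 4 were above PBS replicate 1, with a median difference of 0.10 on slide 1. Fbl, fibrillarin, the ribosomal RNA methyltransferase of box C/D snoRNPs, had levels of 3.24, 3.04 and 3.17 with IL-4, against 2.91, 2.82 and 2.70 with PBS, which differ by 0.34 ± 0.11 on average (SE, adjusted p = 0.081, limma) and by 0.24 ± 0.13 on slide 1. Its core partner Nop56 had levels of 4.15, 4.18 and 4.21 with IL-4, against 4.18, 4.93 and 4.67 with PBS. The 3 IL-4 arrays and PBS replicate 1 were nearly equal for Nop56 (IL-4 SD 0.03, n = 3), and only the PBS arrays of slide 2 were high. The log2 fold change of Nop56 over all arrays was -0.41 ± 0.18 (adjusted p = 0.15, limma), and its difference on slide 1 was -0.00031 ± 0.13.

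A dimmer probe of Nop56 had the other sign, at 0.17 ± 0.12 over all arrays and 0.30 on slide 1. Nop58, the other core protein of box C/D snoRNPs, had levels of 2.70, 2.85 and 2.81 with IL-4, against 2.87, 2.81 and 2.74 with PBS. Its groups overlapped, and they differed by -0.02 ± 0.10 over all arrays (SE, adjusted p = 0.90, limma) and by -0.08 ± 0.12 on slide 1.

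In the H/ACA snoRNPs, which convert uridine to pseudouridine, Nhp2 had levels of 5.84, 5.64 and 5.83 with IL-4, against 5.46, 5.72 and 5.53 with PBS. PBS replicate 2 fell within the range of the IL-4 arrays, and the difference was 0.20 ± 0.11 over all arrays and 0.31 ± 0.14 on slide 1 (SE, adjusted p = 0.24 and 0.51, limma). With quantile normalization the value over all arrays turned to -0.0099. Gar1 differed by 0.26 ± 0.10 over all arrays and 0.18 ± 0.12 on slide 1. Dkc1, dyskerin, the pseudouridine synthase itself, was nearly the same on every array, at 1.62, 1.61 and 1.69 with IL-4 and 1.62, 1.59 and 1.64 with PBS.

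By their brightest probes, all 5 genes of small subunit assembly were above PBS replicate 1. Their median difference was 0.26 on slide 1 and their median log2 fold change 0.12 over all arrays. Ddx21 and Wdr43 each had another probe below PBS replicate 1. Rrp9, a protein of the snoRNP that guides the first cuts of the precursor, had levels of -0.999, -1.27 and -1.09 with IL-4, against -1.51, -1.45 and -1.53 with PBS. All PBS arrays lay close together and below the IL-4 arrays, so the value depended little on the slide. It was 0.37 ± 0.11 over all arrays and 0.38 ± 0.14 on slide 1 (SE, adjusted p = 0.067 and 0.41, limma).

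Ddx21, a nucleolar RNA helicase, had levels of 4.83, 4.60 and 4.77 with IL-4, against 4.40, 4.54 and 4.37 with PBS. Its brightest probe gave 0.30 ± 0.11 over all arrays and 0.33 ± 0.14 on slide 1 (SE, adjusted p = 0.10 and 0.48, limma), but its other probe gave -0.29 ± 0.13 and -0.03. Utp20, Rrp12 and Wdr43, factors of the small subunit precursor, differed on slide 1 by 0.26 ± 0.13, 0.16 ± 0.13 and 0.08 ± 0.12, and over all arrays by 0.02, 0.12 and 0.02. The other probe of Wdr43 gave -0.12 on slide 1 and -0.20 ± 0.11 over all arrays.

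Large subunit assembly held members at both ends. Grwd1, a WD-repeat protein of this pathway, had levels of -0.03, -0.22 and -0.16 with IL-4, against -0.46, -0.46 and -0.43 with PBS. As for Rrp9, the 3 PBS arrays were close together (SD 0.02, n = 3) and all IL-4 arrays lay above them. It differed by 0.31 ± 0.10 over all arrays and 0.32 ± 0.12 on slide 1 (SE, adjusted p = 0.079 and 0.43, limma), and its other probe gave 0.26 and 0.32.

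Nop2, a methyltransferase of the large subunit RNA, had levels of 3.31, 3.14 and 3.16 with IL-4, against 2.93, 3.38 and 3.27 with PBS. The IL-4 arrays lay between PBS replicate 1 and the other PBS arrays, except that IL-4 replicate 1 exceeded PBS replicate 3. Its difference was 0.27 ± 0.12 on slide 1 and 0.01 ± 0.14 over all arrays (SE, adjusted p = 0.52 and 0.96, limma).

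Pes1, Bop1 and Wdr12 encode the 3 proteins of 1 complex, PeBoW. Pes1 had levels of 1.45, 1.32 and 1.27 with IL-4, against 1.60, 2.01 and 1.78 with PBS, with every IL-4 array below every PBS array. It differed by -0.45 ± 0.13 over all arrays (SE, adjusted p = 0.067, limma) and by -0.25 ± 0.14 on slide 1, the lowest of the 36 in both. A dimmer probe of Pes1 gave the reverse, 0.60 ± 0.15 over all arrays and 0.31 on slide 1, so the direction of Pes1 depends on the probe. Bop1 differed by 0.02 ± 0.13 over all arrays and 0.26 ± 0.12 on slide 1, and Wdr12 by -0.21 ± 0.12 and -0.04 ± 0.12.

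Noc2l, a nucleolar complex protein that accompanies the large subunit precursor, had levels of 0.97, 0.96 and 0.95 with IL-4, against 1.08, 1.32 and 1.38 with PBS. All IL-4 arrays were below all PBS arrays, by -0.30 ± 0.11 on average and by -0.12 ± 0.10 on slide 1 (SE, adjusted p = 0.11 and 0.78, limma). Ebna1bp2, an assembly factor, differed by 0.38 ± 0.12 over all arrays (adjusted p = 0.072) and 0.21 ± 0.12 on slide 1, while its other 2 probes gave 0.05 and -0.13 over all arrays. Rrs1, Nip7, Ppan and Nop16 differed on slide 1 by 0.22, 0.16, 0.13 and 0.03, and over all arrays by 0.02, 0.01, -0.17 and -0.18.

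Of the genes outside ribosome assembly, Eif4a1, the RNA helicase of the cap-binding complex, had the largest log2 fold change of the 36 over all arrays. Its levels were 6.51, 6.35 and 6.49 with IL-4, against 6.16, 5.63 and 5.61 with PBS. The IL-4 arrays were above all PBS arrays, but PBS replicate 1 lay 0.54 above the mean of the other PBS arrays. The log2 fold change was 0.65 ± 0.16 (SE, adjusted p = 0.057, limma), a fold of 1.57, and the difference on slide 1 was 0.29 ± 0.11, a fold of 1.23 (adjusted p = 0.46 with slide as a block).

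Eif4e, the cap-binding protein of the same complex, had levels of 3.40, 3.24 and 3.36 with IL-4, against 3.38, 3.80 and 3.62 with PBS. PBS replicate 1 lay within the IL-4 arrays, and the value was -0.26 ± 0.13 over all arrays and -0.04 ± 0.13 on slide 1 (SE, adjusted p = 0.19 and 0.96, limma). Cad, the enzyme that starts pyrimidine synthesis, had levels of -0.36, -0.60 and -0.54 with IL-4, against -0.74, -0.84 and -1.21 with PBS. It was above all PBS arrays on each IL-4 array, by 0.43 ± 0.15 on average and 0.24 ± 0.17 on slide 1 (SE, adjusted p = 0.089 and 0.72, limma).

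**Figure D3:**
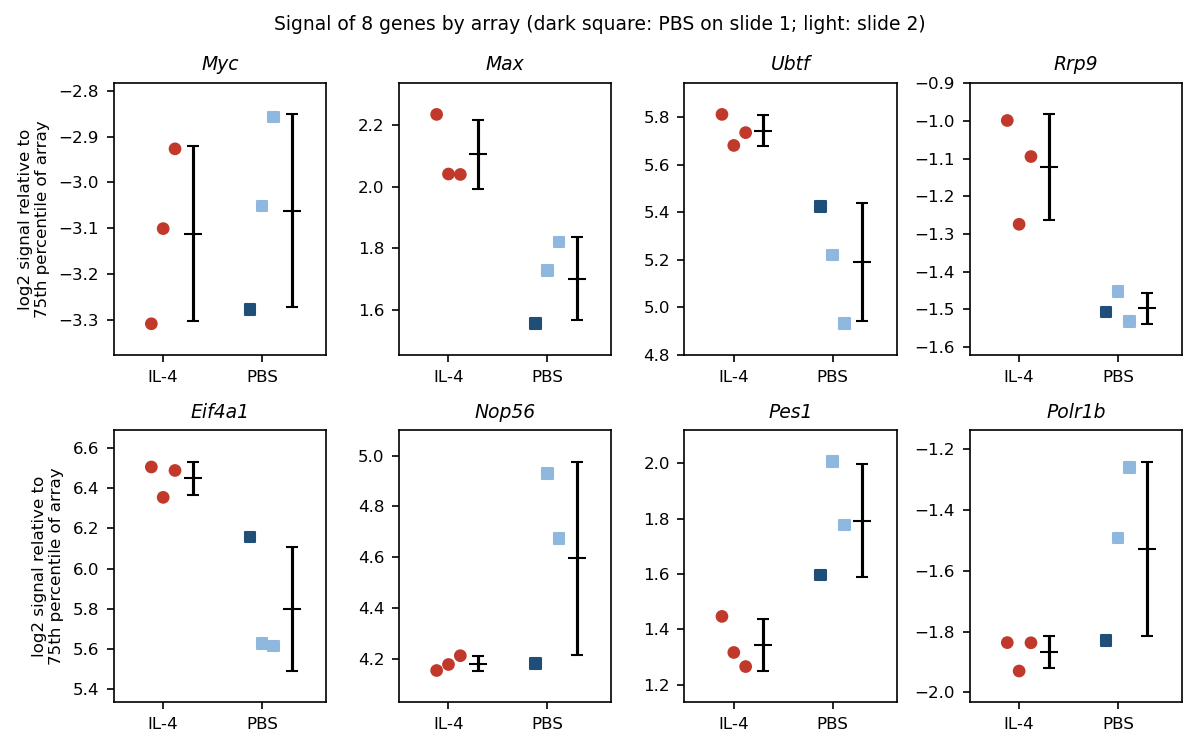
Each panel shows the log2 signal of 1 gene relative to the 75th percentile of its array, IL-4 on the left and PBS on the right, with the mean and SD of 3 arrays beside the points; the axes do not start at 0. Myc overlaps between the groups, Max, Ubtf, Rrp9 and Eif4a1 are above PBS on all IL-4 arrays, and for Nop56 and Polr1b the dark PBS square of slide 1 lies with the IL-4 arrays.

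The calls depended on PBS replicate 1. Without it, limma called 18 members over the 5 remaining arrays, 10 higher and 8 lower with IL-4, but it then also called 19.5% and 23% of all tested genes, and the 8 lower members included Nop56, Polr1b and Eif4e, which were level with PBS replicate 1 on slide 1. In that comparison all IL-4 arrays lie on slide 1 and all PBS arrays on slide 2, so treatment and slide cannot be told apart. The values of Rrp9 and Grwd1 were 0.37 and 0.31 without that array, as with it.

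Of the 12 members with more than 1 tested probe, 7 had the same sign with every probe, both over all arrays and on slide 1. The other 5 were Ddx21, Ebna1bp2, Nop56, Pes1 and Wdr43. The values of these genes rest on the brightest probe, while 24 members had 1 tested probe.

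Further genes of the pathway were counted from lists chosen by function. Of all tested genes, 2.54% fell and 0.807% rose over all arrays at an adjusted p under 0.05 (limma), and 51.2% were above PBS replicate 1. Among 16 tested partners, antagonists and regulators of MYC, 1 fell and 0 rose. It was Trrap, a scaffold of the acetyltransferase complexes that MYC recruits, with levels of 0.51, 0.52 and 0.34 with IL-4, against 1.15, 1.45 and 1.21 with PBS. All IL-4 arrays were below all PBS arrays, PBS replicate 1 included, at a difference of -0.81 ± 0.12 over all arrays (SE, adjusted p = 0.028, limma) and of -0.69 on slide 1 (adjusted p = 0.20 with slide as a block). The median of this list was -0.20 over all arrays and -0.10 on slide 1, against -0.05 and 0.0055 for all tested genes.

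Among 52 further genes of small subunit assembly, Utp6, a protein of the small subunit processome, rose by 0.68 ± 0.13 and Dimt1, a ribosomal RNA dimethyltransferase, changed by -0.89 ± 0.14 (SE, adjusted p = 0.042 and 0.033, limma). On slide 1 they differed by 0.44 and -0.63, and neither passed with slide as a block (adjusted p = 0.27 and 0.21). The list thus had 1 gene higher and 1 lower, against 0.807% and 2.54% of all tested genes. Its median was 0.06 over all arrays and 0.16 on slide 1, where 45 of 52 were above 0, against 51.2% of all tested genes. Among 52 further genes of large subunit assembly, 3 fell and 0 rose, against 2.54% and 0.807% of all tested genes. Znhit6, an assembly factor of box C/D snoRNPs, had a log2 fold change of -0.74 ± 0.10, Guf1 of -0.67 ± 0.12 and Mrto4 of -0.53 ± 0.10 (adjusted p = 0.026, 0.036 and 0.040). None of the 3 passed with slide as a block (adjusted p = 0.12, 0.24 and 0.24). Guf1 is a GTPase of mitochondrial translation and not a factor of the cytosolic large subunit. On slide 1 the values of Znhit6, Guf1 and Mrto4 were -0.80, -0.50 and -0.44. The list's median there was 0.10, with 38 of 52 above 0, against 51.2% of all tested genes.

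None of 29 genes of RNA polymerases I and III passed (limma, 3 higher and 6 lower at an unadjusted p under 0.05, where 16.6% and 17.5% of all tested genes were). Their values ran up to 1.30 ± 0.50 for Ttf1, the terminator of ribosomal RNA transcription, and down to -0.45 ± 0.11 for Polr3k, a subunit of RNA polymerase III. For Ttf1, PBS replicate 1 exceeded the mean of the other PBS arrays by 1.91, and the difference on slide 1 was 0.03. Among 33 genes of translation and its control 1 fell and 0 rose, against 2.54% and 0.807% of all tested genes. The 1 was Mknk1, a kinase that phosphorylates the cap-binding protein. Its log2 value was -0.78 ± 0.16 over all arrays (SE, adjusted p = 0.048, limma) and -0.51 on slide 1, where it did not pass (adjusted p = 0.39 with slide as a block). None of 27 genes of nucleotide, one-carbon and polyamine synthesis passed (5 higher and 1 lower at an unadjusted p under 0.05, against the same shares of all tested genes). Their median on slide 1 was 0.22, and 24 of 27 were above 0, against 0.0055 and 51.2% for all tested genes. The extremes over all arrays were 1.49 ± 0.40 for Tyms, thymidylate synthase, and -0.39 ± 0.12 for Prps2, a phosphoribosyl pyrophosphate synthetase. Tyms differed by 0.44 on slide 1 and its PBS replicate 1 exceeded the mean of the other PBS arrays by 1.58.

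**Figure D4:**
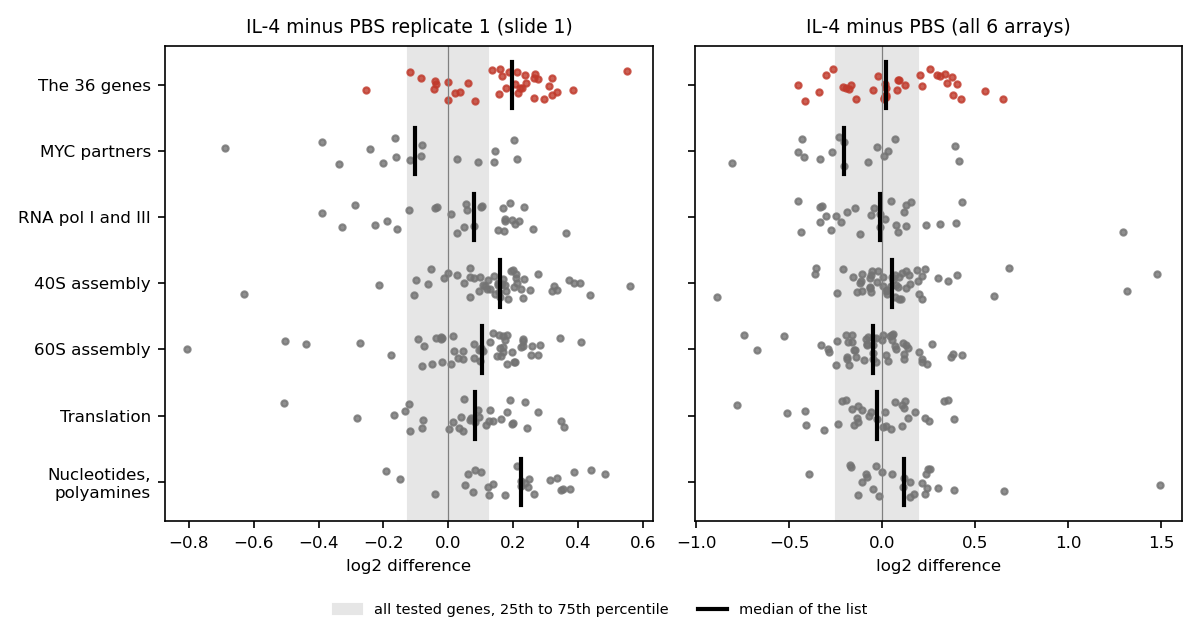
Each point is a gene, the 36 members in red and 6 further lists in grey, placed at its log2 difference on slide 1 (left panel) and over all 6 arrays (right panel); vertical position within a row is random. Black bars are the medians of the lists and the grey band spans the 25th to the 75th percentile of all tested genes, -0.12 to 0.12 on slide 1 and -0.25 to 0.19 over all arrays; the median of the members is outside the band on slide 1 and inside it over all arrays.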

How the data were processed

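The deposited scanner files of single-colour Agilent arrays hold linear spot intensity. Per the file headers, Agilent Feature Extraction 11.0.1.1 subtracted background and detrended each array on its own, without scaling between arrays. The authors' deposited value table correlates with the scanner's log2 values of the same array at 0.9991 to 0.9996, and each of its 6 columns has a median of 6.92. How it was normalized is not stated in the sources, and it served as an alternative only. Control spots and outlier-flagged spots were dropped, copies of a probe were averaged as log2 values, and each array was set to its 75th percentile. Symbols came from matching probe accessions, without version, to RefSeq genes of GRCm38.p6, which named 27234 of 39429 probes. A probe was tested if all arrays of either group had it well above background, which 35979 did, and the brightest stood for its gene. Groups were compared with limma 3.58.1 (lmFit, eBayes) in R 4.3.3 as IL-4 minus PBS, with Benjamini-Hochberg adjustment over 29752 genes and calls at 0.05. SE over all arrays is that of this fit, SE on slide 1 comes from limma's fit blocked by slide, and SD refers to the 3 arrays within a group. The fit was tested on simulated data that held no slide effect, so that test does not cover the overlap of treatment and slide.

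The members, lists, tests and alternatives were chosen with earlier results of these data known. Per-array values were printed for Myc, Max, called members, the 8 largest rises and 4 largest falls on slide 1 and the 4 largest of each over all arrays. Fbl and Dkc1 were added after their values were seen. In the further lists called genes were named, or the largest rise and fall. Mycn of the MYC list was not tested, and Rio1, Ebp2, Polr1f, Polr1g, Polr1h and Cd68 were not matched to a tested probe under these symbols. Over all genes the deviations of IL-4 and PBS arrays with the same replicate number correlated at 0.08, -0.02 and 0.29 for replicates 1, 2 and 3, so the numbers were not taken to pair the samples. The median signal and median local background took the place of the mean signal in the normexp alternative, since they are the columns the files hold.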

Additional observations from a re-analysis of the deposited data

How the results depend on the processing

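Of 20 alternatives, 3 were chosen after seeing the data. The median of the members on slide 1 was between 0.12 and 0.25 under the 13 alternatives it was recomputed for. That of all tested genes moved too, between -0.03 and 0.08 under the same 13. With normexp and the 75th percentile the members were at 0.19 and all tested genes at 0.08. The members' median of PBS replicate 1 minus the other PBS arrays was between -0.20 and -0.14 under the 12 alternatives it was recomputed for. The median of the members over all 6 arrays stayed between 0.01 and 0.09, except that it was 0.20 with the slide block and also within slide 1. Limma called 0 members under 13 alternatives. The others called Max alone with quantile normalization or the authors' table (1 higher, where 2.8% and 2.24% of all tested genes were higher), 6 higher and 1 lower with normexp and the 75th percentile (6.82% and 6.81% of all), 5 and 1 with normexp and quantile (3.28% and 7.06%), and 6 and 1 with a prior variance that follows the mean signal (6.91% and 7.11%), where Pes1 was the 1 lower each time. The replicate block called 2 higher, Ubtf and Eif4a1 (adjusted p = 0.043 and 0.038), and 12.7% of all genes. Leaving out 1 array called 0 to 10 higher and 0 to 8 lower, with all of these calls made without PBS replicate 1.

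Over all genes, 997 calls became 0 to 12654 when 1 array was left out and 0 to 4170 otherwise. With normexp and the 75th percentile 2030 were higher and 2025 lower, against 240 and 757. Only probes with values on all 6 arrays gave 459 and 1014.

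Signs turned only for 5 of the 16 genes printed by rule, each without a call. Myc was 0.17 with the slide block and also within slide 1, 0.054 without the arrays in slide position 1, and -0.16 to 0.052 when 1 array was left out. Nop2 was -0.014 with quantile normalization, and -0.12 to 0.11 when 1 array was left out. Nop58 was 0.025 with the 75th percentile over probes above background on all arrays, 0.028 without the arrays in slide position 1, and -0.055 to 0.025 when 1 array was left out. Nhp2 was -0.0099 with quantile normalization and -0.027 with normexp and quantile, and Pes1 was 0.077 with the mean of its probes. Sizes moved as well. With quantile normalization Ubtf went from 0.55 to 0.37 and Ddx21 from 0.30 to 0.16 over all arrays. Rrp9 went from 0.37 to 0.34, Grwd1 from 0.31 to 0.29 and Max from 0.40 to 0.42. The cause of these changes was not tested.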
